A study of Mus musculus with 11 samples.

Results

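The genes described here encode receptors for extracellular ATP and enzymes that split extracellular nucleotides: P2rx4, P2rx7, Enpp4, Nt5e, Entpd1 and Adora2a. They were chosen by name, with differences between the organs already known on these same arrays, and every probe set that the array annotation assigns to 1 of them alone was taken. Of the 6 genes, 5 had such a probe set, 7 probe sets in all out of 22690 on the array, and Adora2a was not analysed here. P2rx4 and Entpd1 had 2 probe sets each, and P2rx7, Enpp4 and Nt5e had 1 each. All 5 genes lay among the 7436 genes, of 12393 measured, that passed the filter on low levels.

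The arrays measured total RNA of mouse T cells of strain B10.BR that had been cultured for 4 days with dendritic cells of strain C57BL/6. These strains carry different major histocompatibility alleles, which gives every group an allogeneic stimulus, and no group lacked dendritic cells. The dendritic cells came from liver (n = 3 arrays), from the organs that the labels abbreviate as MLN (n = 3) and PLN (n = 3), usually mesenteric and peripheral lymph node, or from spleen (n = 2). Arrays carry a replicate number, 2, 3 or 4, and spleen had no number 2. The labels give no age or sex and do not say whether cells were pooled, whether dendritic cells were removed before extraction, or whether arrays of 1 organ came from separate cultures, so the spread between arrays may be technical.

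ATP that leaves activated or damaged cells acts on T cells through P2rx4 and P2rx7, channels that open when they bind ATP and let calcium into the cell. Entpd1, also called CD39, splits ATP and ADP to AMP, and Nt5e, also called CD73, splits AMP to adenosine, which dampens T cells through receptors such as that encoded by Adora2a. In the mouse, Entpd1 and Nt5e are well known on regulatory T cells, and retinoic acid is known to raise P2rx7 in T cells of the gut. Enpp4 belongs to a family of ecto-enzymes that split nucleotides.

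P2rx7 and P2rx4 are neighbours on chromosome 5 of the mouse reference GRCm38.p6, in the same orientation. P2rx7 spans 122643927 to 122692336 and P2rx4 spans 122707518 to 122729739, with 15181 bases between them and 1 other annotated gene, Gm10064, in or reaching into that gap. Nt5e lies on chromosome 9 (88327609 to 88372089), Enpp4 on chromosome 17 (44096307 to 44105809) and Entpd1 on chromosome 19 (40612366 to 40741602). RefSeq promoter sequences, 300 bases around a transcript start, were held for all 5 genes, with 2 starts for P2rx7 and 2 for Entpd1. Those of the neighbouring receptors, with the first start of P2rx7, and of Nt5e, the gene with the widest range between arrays, are shown. Capitals mark matches on either strand to the nuclear receptor core motifs AGGTCA and GGGTCA and to the GC box GGGCGG, chosen after the sequences were read.
P2rx7, chr5:122643677-122643976, + strand: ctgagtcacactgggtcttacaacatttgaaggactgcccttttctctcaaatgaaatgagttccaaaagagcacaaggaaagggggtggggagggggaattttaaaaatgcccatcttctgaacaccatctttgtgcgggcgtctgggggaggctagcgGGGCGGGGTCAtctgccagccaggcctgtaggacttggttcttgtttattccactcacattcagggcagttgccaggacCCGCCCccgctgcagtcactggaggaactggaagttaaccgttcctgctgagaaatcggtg
P2rx4, chr5:122707294-122707593, + strand: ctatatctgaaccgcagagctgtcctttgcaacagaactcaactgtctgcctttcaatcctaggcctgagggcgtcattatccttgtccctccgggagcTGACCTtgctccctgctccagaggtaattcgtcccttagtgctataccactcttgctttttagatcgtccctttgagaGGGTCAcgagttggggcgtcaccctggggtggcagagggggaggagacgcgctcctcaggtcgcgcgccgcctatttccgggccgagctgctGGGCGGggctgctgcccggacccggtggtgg
Nt5e, chr9:88327359-88327658, + strand: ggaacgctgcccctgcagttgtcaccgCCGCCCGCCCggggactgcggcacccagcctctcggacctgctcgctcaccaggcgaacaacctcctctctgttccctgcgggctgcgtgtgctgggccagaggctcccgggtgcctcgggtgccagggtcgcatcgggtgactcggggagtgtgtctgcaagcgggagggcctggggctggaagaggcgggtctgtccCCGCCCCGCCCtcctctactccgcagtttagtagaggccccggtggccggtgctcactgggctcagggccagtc

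The P2rx7 promoter held GGGTCA at -85 from the start site, which shares a base with a GC box at -90, and a second GC box on the other strand at -11. The P2rx4 promoter held GGGTCA at -73, AGGTCA on the other strand at -151 and a GC box at 19 bases past the start. It also held TGACG, a half-site of cyclic AMP response elements, on the other strand at -178 and -57, which is not marked. The Nt5e promoter held no AGGTCA or GGGTCA in this window, and 4 GC boxes, all on the other strand, in overlapping pairs. The promoters of Enpp4 and of both Entpd1 starts, not shown, held neither AGGTCA nor GGGTCA. Of 32851 mouse promoter windows of the same length, 16.3% held AGGTCA, 13.7% held GGGTCA and 35.7% held GGGCGG on either strand. TGACG was held by 20.8%, so each match is common. A match describes these letters and is not a bound site.

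All values below are levels on the log2(intensity + 16) scale after quantile normalization, and differences on that scale understate the change of dim genes. The 5 genes were of middling brightness. Entpd1 had deposited intensities of 321.8 to 673.1, P2rx4 197.3 to 490.6, Enpp4 105.1 to 301.0, P2rx7 61.6 to 225.0 and Nt5e 36.8 to 259.9. The lowest Nt5e value was brighter than 25.2% of the probe sets of its array, and the lowest P2rx7 value than 33.4%. No detection calls were used here, so whether these dim values lie above background was not tested.

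Because the genes were picked for their organ differences, their levels by organ are a description without a test. For these genes the SEs of organ differences come from a fit without the replicate number, so they include the spread between numbers. In bulk RNA, fewer cells of a type and less RNA per cell cannot be told apart. The mean level of each of the 5 genes was highest in cultures with MLN dendritic cells, and 4 of 5, all but P2rx7, were lowest in cultures with liver dendritic cells. Among all tested genes, 22.9% had their highest mean in MLN, and 7.88% had it there with their lowest in liver. For P2rx4, P2rx7 and Enpp4 all 3 MLN arrays stood above the other 8, a pattern of 0.457% of tested genes. In P2rx4, P2rx7, Enpp4 and Nt5e all MLN arrays stood above all liver arrays, as in 4.14% of tested genes. For P2rx4 alone all 3 liver arrays stood below the other 8, as for 0.686% of tested genes. These shares are given beside counts that the choice of genes fixed, and nothing follows from them.

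**Figure D1:**
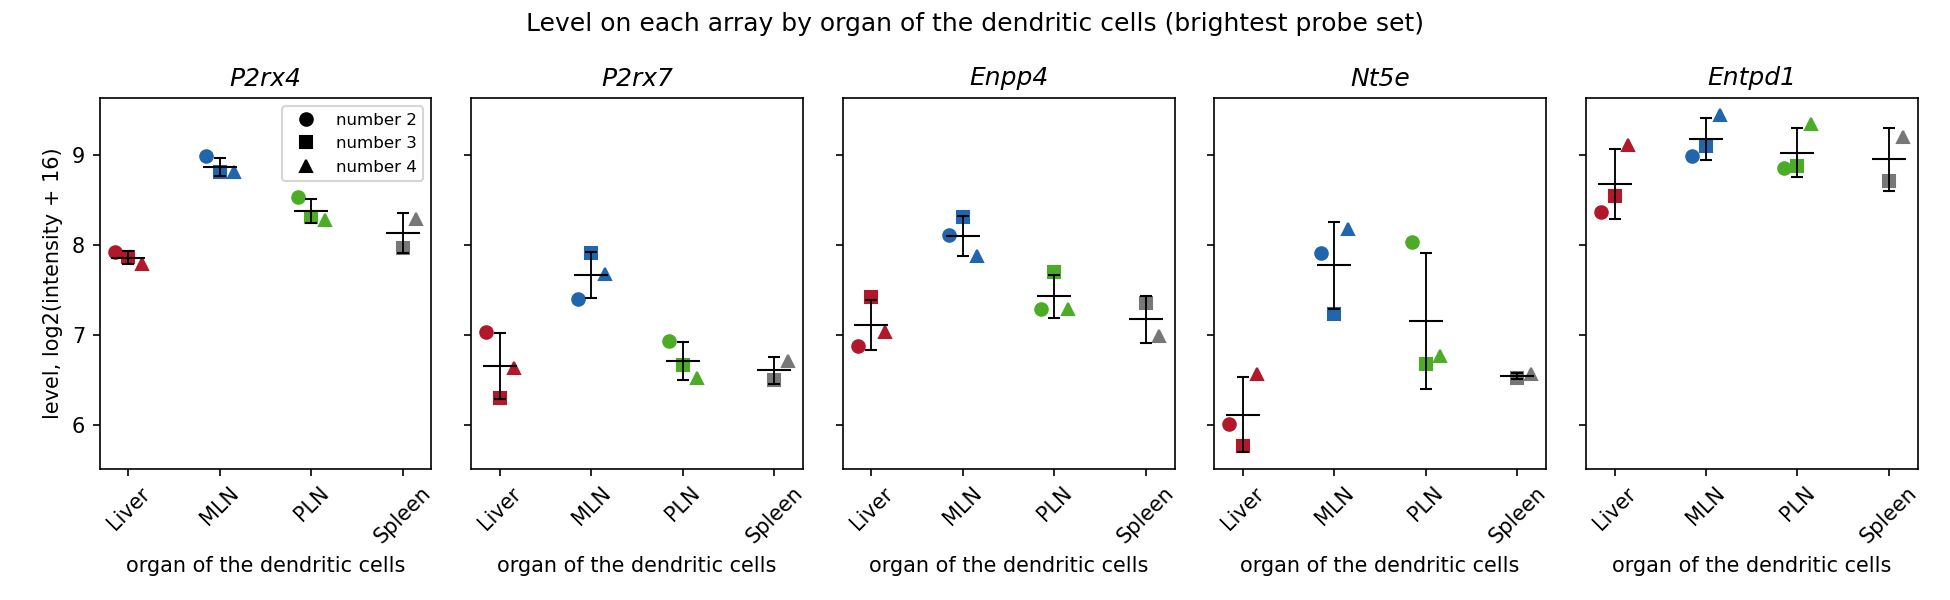
Level of the brightest probe set of each gene on each array, as log2(intensity + 16) after quantile normalization, by organ of the dendritic cells. Symbols show the replicate number, bars the organ mean and SD (n = 3, and n = 2 for spleen). The MLN arrays of P2rx4, P2rx7 and Enpp4 lie above all other arrays, while those of Nt5e and Entpd1 overlap with PLN.

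The receptor P2rx4 had the smallest SD of the 5 genes in liver, MLN and PLN cultures. Its levels were 7.93, 7.87 and 7.79 in the liver cultures of numbers 2, 3 and 4. They were 8.99, 8.81 and 8.81 in MLN, 8.53, 8.32 and 8.28 in PLN, and 7.97 and 8.28 in the spleen cultures of numbers 3 and 4. The arrays of MLN, the organ with the highest level, were separate from those of PLN, the arrays of PLN and spleen overlapped, and both spleen arrays lay above all liver arrays. The means were 7.86 ± 0.07 in liver, 8.87 ± 0.10 in MLN, 8.37 ± 0.14 in PLN (SD, n = 3), and spleen had 8.13 ± 0.22 (SD, n = 2). MLN was offset from the other organs' mean by 0.75 (SE 0.11) and liver by -0.60 (SE 0.11). MLN stood above liver by 1.01 (SE 0.13), which is 2.02-fold on this scale. PLN took a middle place, 0.51 (SE 0.13) above liver and 0.50 (SE 0.13) below MLN.

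The dimmer P2rx4 probe set had wider differences than the brightest, which gave the values above. It read 7.20, 7.17 and 7.44 in liver cultures and 8.59, 8.55 and 8.89 in MLN cultures. In PLN it read 7.94, 7.84 and 7.57, and in spleen 7.79 and 7.64. Its MLN arrays lay above and its liver arrays below all others, and PLN and spleen overlapped. It placed MLN 1.41 above liver and 1.09 above the other organs' mean. Across the 11 arrays the probe sets correlated at r = 0.91, with both read from the same RNA.

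**Figure D2:**
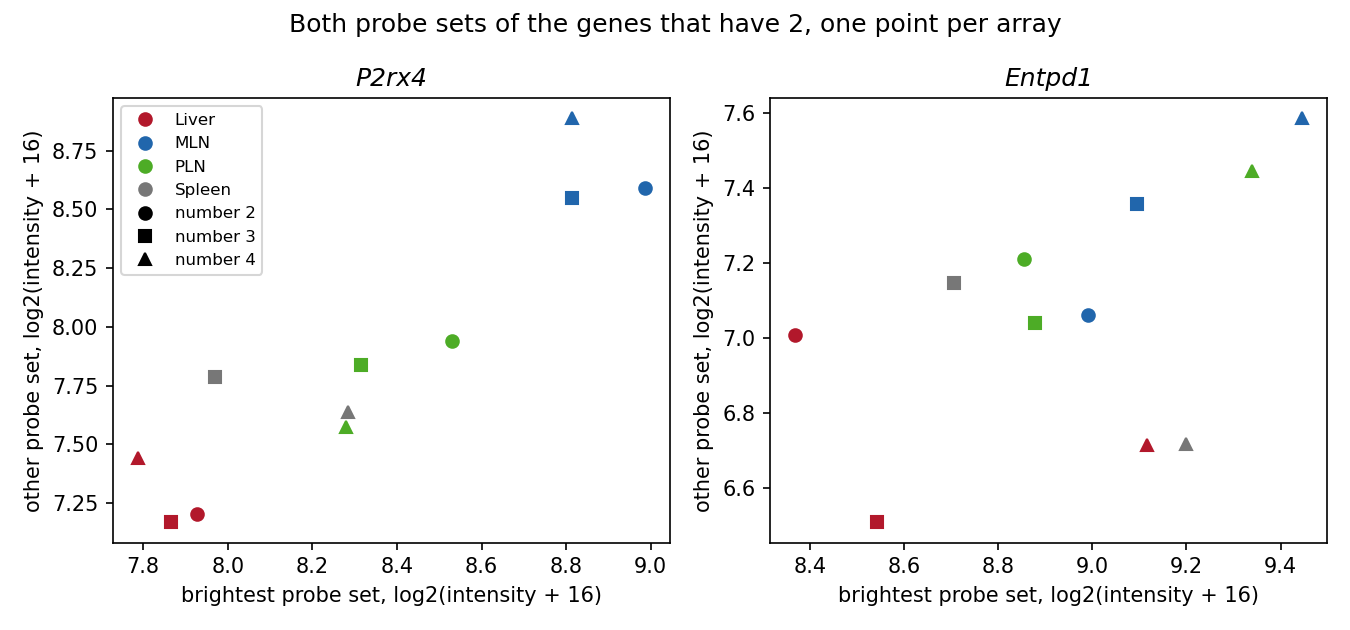
Levels of both probe sets of P2rx4 and of Entpd1, 1 point per array, as log2(intensity + 16). Colours show the organ and symbols the replicate number. The P2rx4 probe sets place the MLN arrays together at the top and the liver arrays at the bottom, while those of Entpd1 scatter more.

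P2rx7, the channel that needs much more ATP to open and that can form large pores, stood apart in MLN cultures. Its levels there were 7.40, 7.92 and 7.68 in numbers 2, 3 and 4. In liver they were 7.03, 6.30 and 6.63, in PLN 6.94, 6.67 and 6.53, and in spleen 6.50 and 6.71. All MLN arrays were above all other arrays, and the arrays of the other 3 organs overlapped throughout. Liver had a mean of 6.65 ± 0.37 and PLN one of 6.71 ± 0.21 (SD, n = 3), and spleen had 6.61 ± 0.15 (SD, n = 2), gaps smaller than these SDs. MLN had a mean of 7.67 ± 0.26 (SD, n = 3), which was offset from the other organs' mean by 1.01 (SE 0.19). MLN stood above liver by 1.01 (SE 0.23) and above PLN by 0.96 (SE 0.23). Liver stood -0.34 (SE 0.19) from the mean of the others, a mean that holds the high MLN arrays.

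Enpp4 followed the same order as P2rx4 with more scatter. Its levels were 6.88, 7.42 and 7.03 in liver cultures, 8.11, 8.31 and 7.88 in MLN, 7.29, 7.70 and 7.29 in PLN, and 7.36 and 6.99 in spleen. The MLN arrays stood apart, and those of PLN, spleen and liver overlapped. The means were 7.11 ± 0.28 in liver, 8.10 ± 0.22 in MLN, 7.43 ± 0.24 in PLN (SD, n = 3), and spleen had 7.17 ± 0.26 (SD, n = 2). MLN was offset from the other organs' mean by 0.86 (SE 0.17) and from liver by 0.99 (SE 0.20), or 1.98-fold on this scale. The gap between PLN and spleen, 0.25, and that between spleen and liver, 0.06, were both smaller than the larger SD of the pair.

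Nt5e, which makes adenosine from AMP, had the widest range. Its levels were 6.01, 5.77 and 6.57 in liver cultures of numbers 2, 3 and 4, and 7.91, 7.24 and 8.18 in MLN. In PLN it read 8.03 on the array of number 2 but 6.68 and 6.76 on those of numbers 3 and 4, and in spleen it read 6.52 and 6.56. The MLN arrays were above all liver arrays, but PLN replicate 2 was above 2 of the 3 MLN arrays. The means were 6.11 ± 0.41 in liver, 7.77 ± 0.49 in MLN, 7.16 ± 0.76 in PLN (SD, n = 3), and spleen had 6.54 ± 0.03 (SD, n = 2). MLN stood 1.66 (SE 0.38) above liver, or 3.16-fold on this scale, and the gap of 0.62 between MLN and PLN was below the SD within PLN. Liver stood -1.04 (SE 0.31) and MLN 1.17 (SE 0.31) from the other organs' mean.

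Entpd1, which acts one step before Nt5e, differed least between organs. Its brightest probe set read 8.37, 8.54 and 9.12 in liver cultures, 8.99, 9.10 and 9.45 in MLN, 8.85, 8.88 and 9.34 in PLN, and 8.71 and 9.20 in spleen. Arrays of all 4 organs overlapped, and in each organ the array of number 4 was the highest. The means were 8.68 ± 0.39 in liver, 9.18 ± 0.24 in MLN, 9.02 ± 0.27 in PLN (SD, n = 3), and spleen had 8.95 ± 0.35 (SD, n = 2). No gap between neighbours in this order exceeded the larger SD of the pair. MLN stood 0.50 (SE 0.23) above liver and 0.29 (SE 0.19) from the mean of the others, and liver stood -0.38 (SE 0.19) from it. The other Entpd1 probe set was dimmer, at 74.4 to 168.0 in intensity, and correlated with the first at r = 0.49 over the 11 arrays. Its means were 6.74 ± 0.25, 7.34 ± 0.26 and 7.23 ± 0.20 in liver, MLN and PLN (SD, n = 3), and spleen had 6.93 ± 0.30 (SD, n = 2), the same order as the first.

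Differences between organs were then read within each replicate number, where each organ has 1 array. By their brightest probe sets, P2rx4, P2rx7, Enpp4 and Entpd1 were highest in the MLN array in all 3 numbers, a pattern of 3.98% of tested genes. The dimmer Entpd1 probe set was not, as in number 2 it read 7.06 in MLN and 7.21 in PLN. For Nt5e the exception was number 2, where PLN stood highest, 0.12 above MLN. P2rx4 and Entpd1 were lowest in the liver array in all 3 numbers, as were 5.06% of tested genes. As the genes were chosen on these arrays, nothing is read from either share.

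The size of the MLN difference varied least for the brightest probe set of P2rx4. Against the other organs of its number, the MLN array of P2rx4 stood 0.76, 0.76 and 0.70 higher in numbers 2, 3 and 4. For Enpp4 these differences were 1.03, 0.82 and 0.77, and for Entpd1 0.38, 0.39 and 0.23. P2rx7 varied more, at 0.42 in number 2 against 1.43 in number 3 and 1.06 in number 4. Nt5e stood at 0.89, 0.92 and 1.55. The dimmer P2rx4 probe set had 1.02, 0.95 and 1.34, a wider spread than Enpp4 or the brightest probe set of Entpd1. The dimmer Entpd1 probe set had -0.05, 0.46 and 0.63.

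The liver array stood below the other organs' mean of its number for all 5 genes in all 3 numbers. It lay furthest below for Nt5e in numbers 2 and 3, at -1.96 and -1.04, and stood at -0.60 in number 4. In numbers 2, 3 and 4, P2rx4 had -0.83, -0.50 and -0.67, Enpp4 -0.82, -0.37 and -0.35, and Entpd1 -0.55, -0.35 and -0.21. Among the brightest probe sets P2rx7 had the smallest value, -0.14 in number 2, with -0.73 and -0.34 in numbers 3 and 4. Number 2 holds no spleen array, so its means are over 2 other organs rather than 3.

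**Figure D3:**
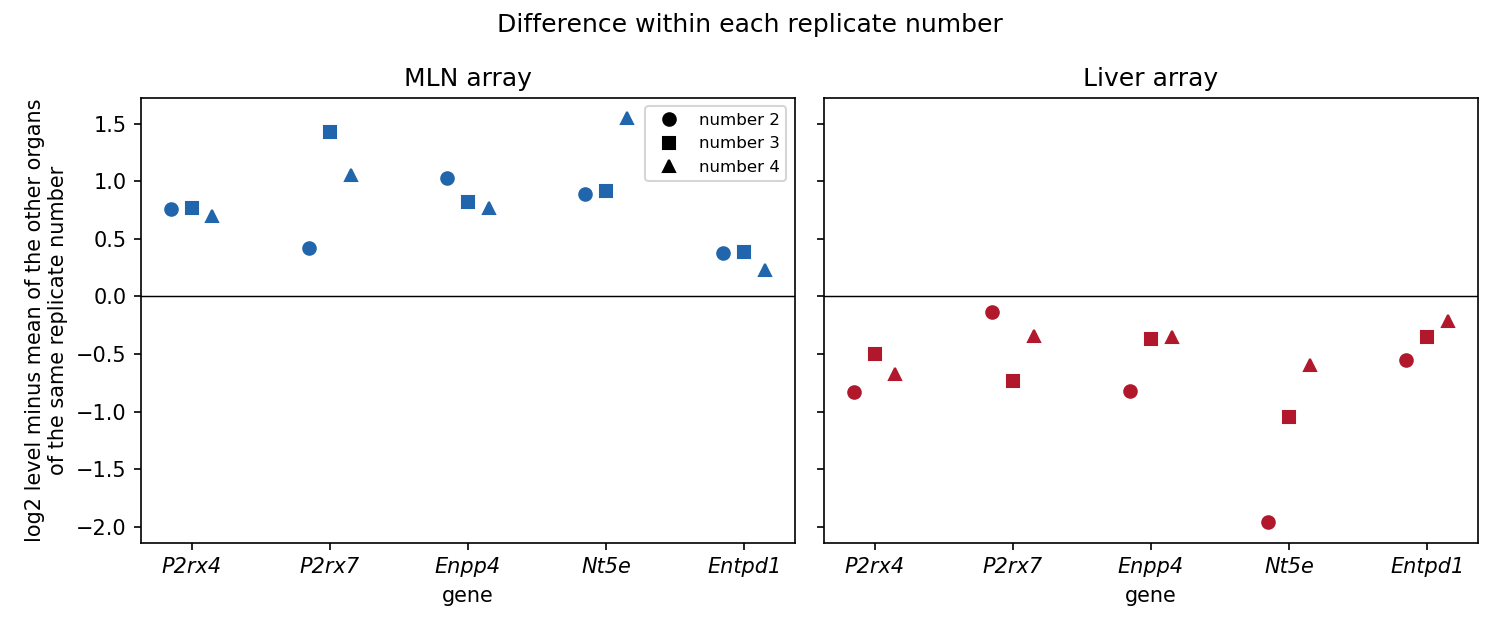
Log2 level of the MLN array (left) and of the liver array (right) minus the other organs' mean of the same replicate number. Each gene has 1 point per number, from its brightest probe set only. All MLN points lie above 0 and all liver points below, with the narrowest spread for the brightest probe set of P2rx4 in MLN, from 0.70 to 0.76.

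PLN and spleen means lay between those of MLN and liver for all but P2rx7, whose spleen mean was 0.05 below that of liver. PLN was offset from the other organs' mean by 0.09 (SE 0.11) for P2rx4, -0.03 (SE 0.17) for Enpp4, 0.09 (SE 0.19) for Entpd1, 0.35 (SE 0.31) for Nt5e and -0.26 (SE 0.19) for P2rx7. Spleen stood below that mean for all 5, from -0.01 (SE 0.22) for Entpd1 to -0.47 (SE 0.36) for Nt5e. The organ contrasts share arrays, so these differences are not separate from those of MLN and liver. The median over the 5 genes was 0.86 in MLN, -0.45 in liver, 0.09 in PLN and -0.37 in spleen. Over all 7436 tested genes it was -0.0048, 0.0091, -0.0051 and 0.0105. The choice of genes by known organ differences sets these medians apart, so nothing follows from the comparison.

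The genes differed in how much they followed the replicate number. Contrasts between numbers were not named among the reasons for choosing the genes and were tested. The genes were still chosen with earlier results of these data known, so the p-values of the number contrasts are not free of that choice. For Entpd1 the number took 58.8% of the variance across arrays, and the organ a further 38.5%. It took 6.04% of the variance of P2rx4, 5.36% of P2rx7, 15.3% of Enpp4 and 16.1% of Nt5e, where the organ took a further 90.9%, 78.1%, 82.6% and 66.8%. Over all tested genes the medians were 51.9% for the number and 18.3% for the organ. Choosing genes with known organ differences favours a large organ share and so leaves less for the number. The shares are therefore a description, and nothing is read from their distance to these medians.

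The arrays of 1 number are 1 per organ and resemble each other, and the labels do not say what a number marks. The p-values of the number contrasts therefore measure how evenly a change ran across organs, not the spread between replicate series. Entpd1 was higher in number 4 than in number 3 by 0.47 (SE 0.08; limma adjusted p = 0.000672, n = 4 arrays against 4). It was higher in all 4 organs, with changes from 0.35 in MLN to 0.57 in liver. It was also higher in number 4 than in number 2, by 0.57 (SE 0.09), in all 3 organs that have both (limma adjusted p = 0.00102). Its dimmer probe set passed neither contrast, at 0.10 and 0.07 (limma adjusted p = 0.697 and 0.846), and stood at -0.43 in spleen for number 4 against 3. Enpp4 was lower in number 4 than in number 3 by -0.40 (SE 0.12), again in all 4 organs, from -0.37 in spleen to -0.44 in MLN (limma adjusted p = 0.0191). Between numbers 3 and 2 it differed by 0.38 (SE 0.14) and did not pass (limma adjusted p = 0.0758). The call between 4 and 3 was lost without Liver replicate 3 (adjusted p = 0.0592), MLN replicate 4 (0.0684) or PLN replicate 3 (0.0553) in limma's fit.

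Neither receptor passed between numbers. P2rx4 differed by 0.05 (SE 0.10) between numbers 4 and 3, by -0.19 (SE 0.11) between 3 and 2 and by -0.14 (SE 0.11) between 4 and 2 (limma adjusted p = 0.713, 0.248 and 0.362). P2rx7 differed by 0.04 (SE 0.20), -0.19 (SE 0.22) and -0.15 (SE 0.22) (limma adjusted p = 0.886, 0.602 and 0.658). For number 3 against 2, P2rx7 stood at 0.52 in MLN but at -0.73 in liver and -0.27 in PLN. A miss of the threshold does not show that the numbers were alike.

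Nt5e differed by 0.47 (SE 0.26) between numbers 4 and 3 (limma adjusted p = 0.163), with 0.94 in MLN and 0.80 in liver but 0.09 in PLN and 0.05 in spleen. With single arrays left out it ran from 0.28 without Liver replicate 4 and 0.31 without MLN replicate 4 to 0.72 without PLN replicate 4, where alone it passed (limma adjusted p = 0.455, 0.439 and 0.0434). Between numbers 3 and 2 it differed by -0.69 (SE 0.29), with -1.35 in PLN, and did not pass (limma adjusted p = 0.124). Without PLN replicate 2 it was -0.25 (limma adjusted p = 0.609). In the number contrasts, 2 of the 5 genes passed between 4 and 3, where 43.3% of all tested genes passed. Between 3 and 2 none of the 5 passed in limma, with 2 at an unadjusted p under 0.05, and 18.9% of tested genes passed. Between 4 and 2, 1 of the 5 passed, against 27.2%.

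**Figure D4:**
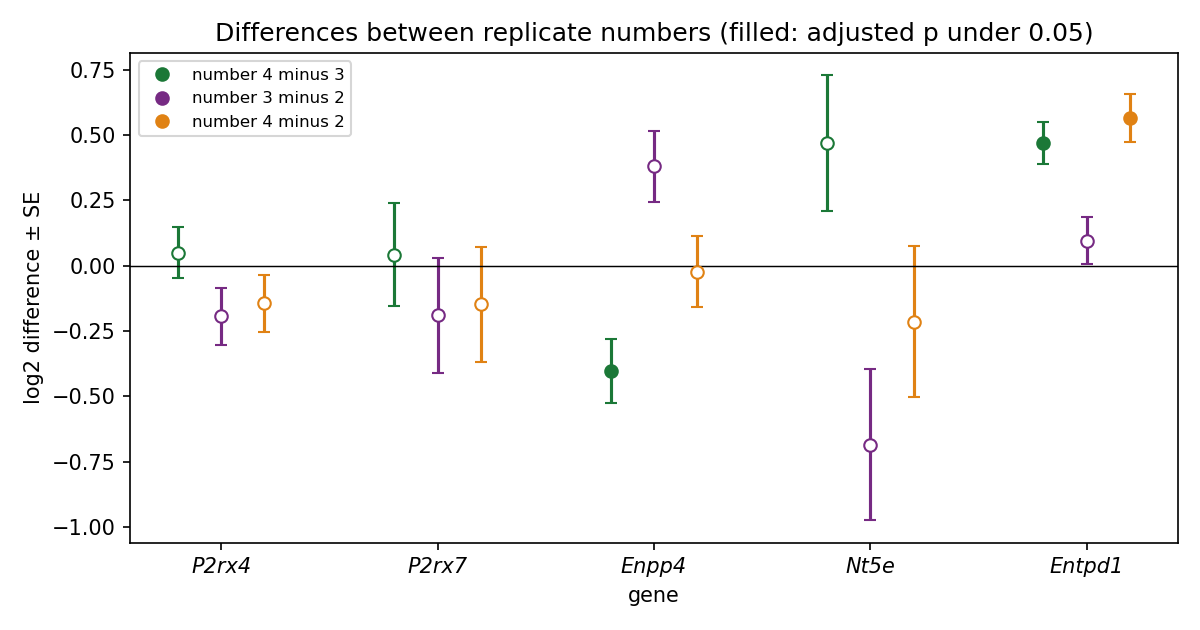
Log2 difference between replicate numbers with the organ in the model, with its SE, for each gene. Filled points passed limma at an adjusted p under 0.05: Enpp4 and Entpd1 between numbers 4 and 3, and Entpd1 between numbers 4 and 2.

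The organ differences of the 5 genes above got no test. Outside that set, no tested gene of ATP and adenosine handling passed an organ contrast unless the replicate number was in the model. The lists of these genes hold 69 entries in 9 roles, none of them from the set above, of which 47 were measured and 32 passed the filter on low levels. Without the replicate number in the model, 0 of the 32 passed limma in any of the 4 organ contrasts or between MLN and liver. At an unadjusted p under 0.05 there were 3 in liver, 3 in MLN, 2 in PLN, 1 in spleen and 3 between MLN and liver. Over all tested genes 0, 0.0941%, 0, 0 and 0.161% passed in these 5 contrasts. In MLN against the other organs 14 of the 32 genes lay higher, with a median of -0.01, where 48.3% of all tested genes lay higher.

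The replicate numbers pair the arrays, and with the number as a block 4 pathway genes fell in MLN against liver cultures and none rose. In that fit 4.13% of all tested genes passed: 1.88% fell and 2.25% rose. In PLN and spleen against the other organs limma with the block called 0 of the 32 (6 and 5 at an unadjusted p under 0.05), where 0.0134% and 0 of tested genes passed. Il1b, the inflammatory cytokine whose release is set off by P2rx7, fell by 1.27 (SE 0.18; limma adjusted p = 0.00243, against 0.10 without the block). Casp1, the protease that matures it, fell by 0.43 (SE 0.10; adjusted p = 0.0321, against 0.717), and Pycard, the adaptor of the same complex, fell by 0.40 (SE 0.09; adjusted p = 0.0309, against 0.934), both in limma with the block. Pnp, which degrades inosine, fell by 0.35 (SE 0.08; limma adjusted p = 0.0324, against 1.0 without the block).

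The Il1b levels were 8.0, 8.41 and 8.37 in liver cultures of numbers 2, 3 and 4 and 7.07, 6.94 and 6.97 in MLN. They were 6.81, 7.80 and 7.39 in PLN, and 8.76 and 8.55 in spleen. The MLN and liver arrays did not overlap, spleen stood above both, and PLN replicate 2 was the lowest of all. Within numbers 2, 3 and 4, MLN stood -0.93, -1.48 and -1.40 from liver. Casp1 stood -0.44, -0.41 and -0.44 from liver in the same numbers, Pycard -0.66, -0.24 and -0.31, and Pnp -0.44, -0.24 and -0.37. In the blocked fit Il1b passed in each of the 11 fits that left out 1 array (limma adjusted p from 0.00151 to 0.0203). The other 3 did not pass there without Liver replicate 2, Liver replicate 4, MLN replicate 2, MLN replicate 3 or MLN replicate 4, when Il1b alone was left. Casp1 also did not pass without Liver replicate 3 (limma adjusted p = 0.0811).

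In the blocked fit against the other organs' mean, Il1b fell by 1.05 (SE 0.15) in MLN (limma adjusted p = 0.00449, against 0.107 without the block), where 1.33% of tested genes passed and 0.619% fell. That call was lost without MLN replicate 4 (adjusted p = 0.0576). Pnp was higher in liver by 0.30 (SE 0.07; limma adjusted p = 0.0446 with the block, 1.0 without), where 2.14% of tested genes passed and 0.753% rose, and was lost without any 1 of 8 arrays. Among the alternatives tried without the block, Il1b passed only when PLN replicate 2 was left out (adjusted p = 0.0321 in MLN and 0.0337 between MLN and liver in limma).

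Some markers of macrophages and monocytes, like Il1b, were lower in MLN than in liver cultures, and others differed little. The summed intensity of 7 macrophage, monocyte and Kupffer cell markers was 838.1 to 883.6 in liver cultures and 850.8 to 986.6 in spleen. It was 455.7 to 730.2 in MLN and 513.1 to 678.3 in PLN, and Marco was below an intensity of 16 on all arrays. Of this list 4 genes were tested, and in MLN against liver none passed limma without the block and 2 passed with it, as with Il1b. Cd14, a receptor of monocytes, fell by 1.37 (SE 0.27; limma adjusted p = 0.0169 with the block), and Lyz2, a lysozyme of myeloid cells, fell by 1.0 (SE 0.20; adjusted p = 0.0155). Cd14 was lost without Liver replicate 2, Liver replicate 4 or MLN replicate 4 (adjusted p from 0.0742 to 0.0870), and Lyz2 without the first 2 of these or any MLN array (0.0509 to 0.116). Csf1r and Cd68, the brightest, had means of 7.57 and 7.35 in liver and 7.37 and 7.44 in MLN. Their part in the Il1b difference was not tested.

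By role, none of the lists had a member called for higher levels in MLN cultures, with or without the block. Of all tested genes 47.0% lay higher in MLN than in liver. Of 6 tested inflammasome and shedding genes all lay lower in MLN than in liver, with a median of -0.33. Of 6 genes of adenosine removal and transport, 5 lay lower, with a median of -0.21, and Slc29a3, a nucleoside transporter, stood at -0.31 in MLN against the other organs (limma adjusted p = 1.0). Of 5 tested nucleotide-splitting enzymes 2 lay higher and 3 lower, and Alpl, an alkaline phosphatase, stood at 0.49 in PLN against the others (limma adjusted p = 1.0). Of 9 genes of cyclic AMP signalling, 4 lay higher in MLN than in liver. Without the block the smallest p among them was that of Prkaca, a catalytic subunit of protein kinase A, at 0.24 in spleen against the others. With the block it was that of Crem, a transcription factor of this pathway, at -0.33 (SE 0.10) in liver against the others, which did not pass (limma adjusted p = 0.126).

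Nucleotide receptors of the P2ry family, ecto-enzymes of NAD and ATP release had 2 tested genes each. Slc17a9, which loads ATP into vesicles, stood at -0.29 in liver against the others, and P2ry14, a receptor for nucleotide sugars, at 0.26 in PLN. Art1, an ADP-ribosyltransferase, stood at 0.53 in spleen. None of these passed limma in either fit. None of 4 measured channels of the P2rx4 family, P2rx1, P2rx3, P2rx5 and P2rx6, reached the filter, with the highest intensity of any array at 70.5, 5.5, 44.8 and 57.8.

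**Figure D5:**
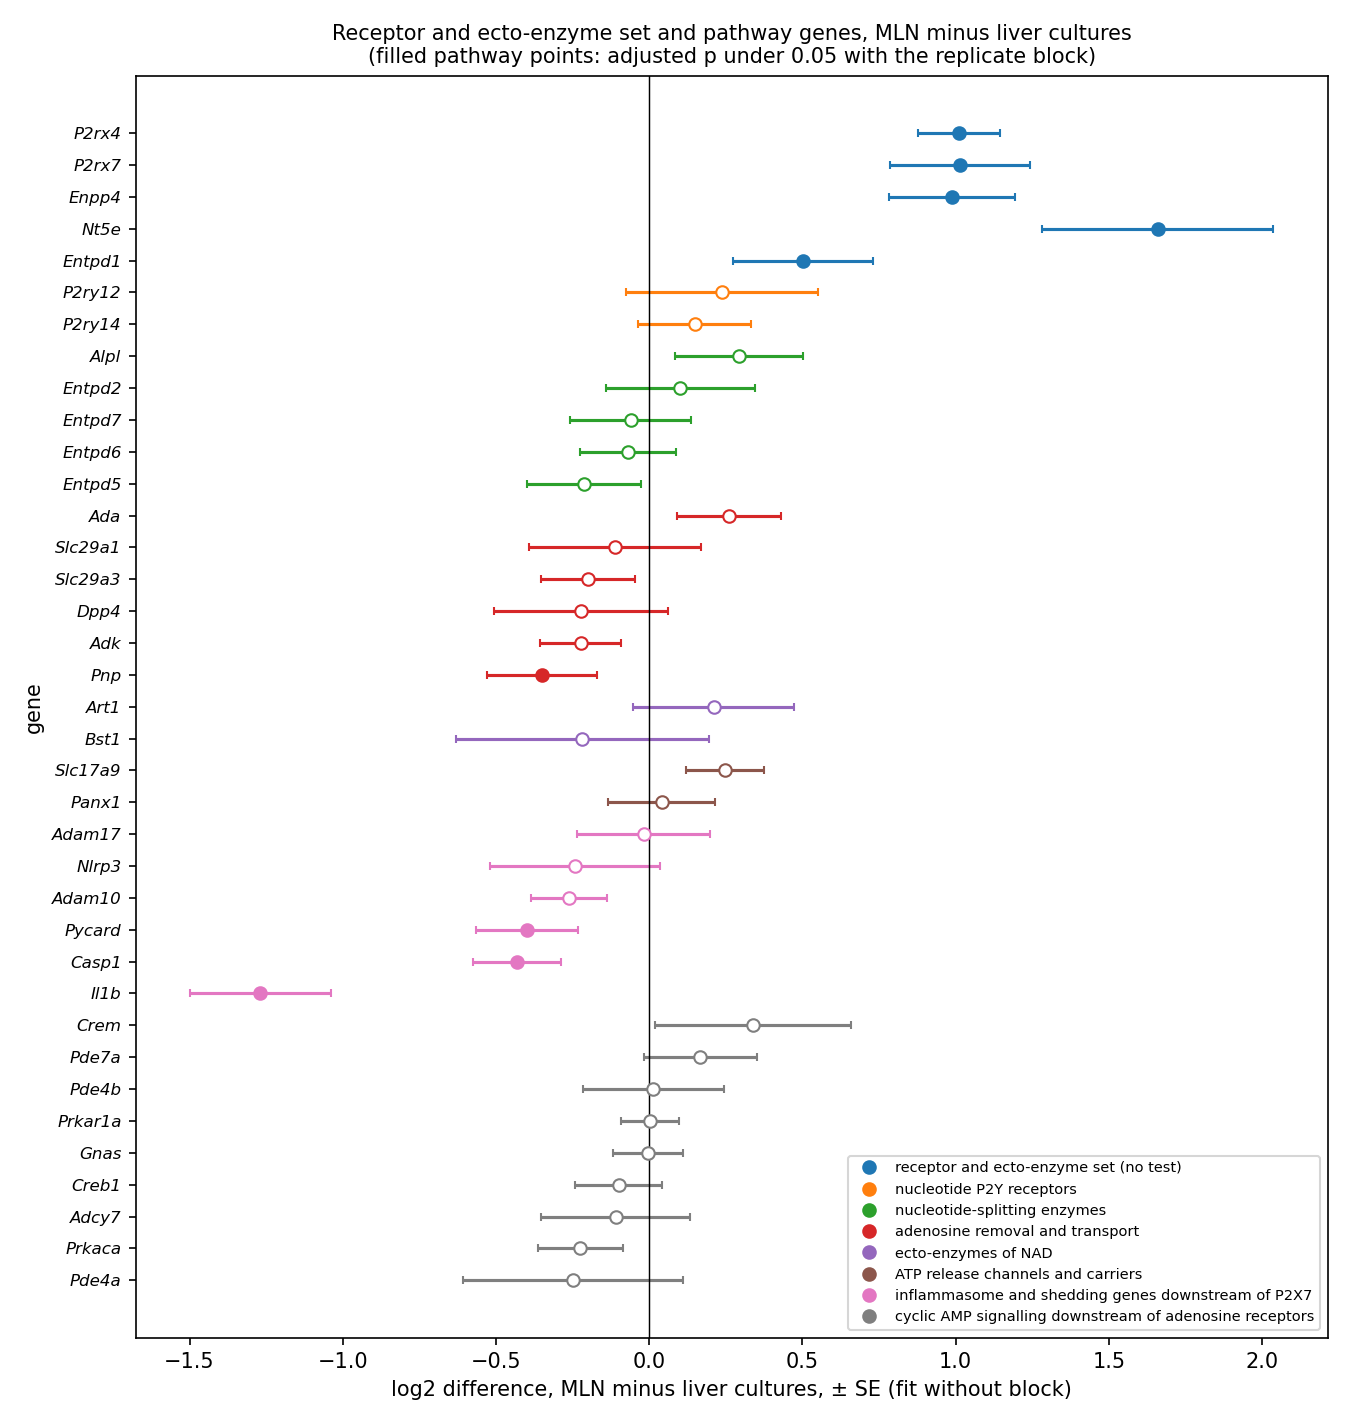
Log2 difference between MLN and liver cultures with its SE in the fit without a block, for the 5 receptor and ecto-enzyme genes (top, without a test) and the 32 tested pathway genes by role. Filled pathway points passed limma with the replicate number as a block: Il1b, Casp1, Pycard and Pnp, all lower in MLN.

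Markers of T cells were bright throughout: all 9 were tested, and Cd3d, the brightest, had means of 12.75 to 12.88. Of the T cell markers 1 of 9 lay higher in MLN than in the other organs and 8 of 9 in liver, with medians of -0.10 and 0.13. Of all tested genes 48.3% lay higher in MLN and 53.2% in liver. Regulatory T cells are known to carry Nt5e and Entpd1. The summed intensity of 6 regulatory T cell markers, in which bright genes weigh most, was higher on all MLN arrays than on all liver arrays. It was 12960.2 to 16279.3 in liver cultures and 13597.8 to 16786.9 in spleen, against 18077.4 to 21555.5 in MLN and 15518.9 to 23431.1 in PLN. Tnfrsf18 was the brightest, with means of 12.16 in liver and 12.79 in MLN, and Ctla4 followed with 12.39 and 12.59. Foxp3 and Ikzf2 of this list did not pass the filter on low levels and were not tested. The sum thus rests mostly on the brighter genes and is not a measure of the number of regulatory T cells. Limma without the block called none of the 4 tested genes of this list. With the block, Tnfrsf18 was higher in MLN than in liver by 0.63 (SE 0.08; limma adjusted p = 0.00169) while Nrp1, also of this list, fell by 0.78 (SE 0.19; adjusted p = 0.0380). Of the T cell markers, Cd2 and Cd5 fell by 0.55 (SE 0.09) and 0.57 (SE 0.13) in that fit (limma adjusted p = 0.00670 and 0.0302), and none passed without the block. With single arrays left out, Tnfrsf18 and Cd2 passed in all 11 blocked fits. Cd5 was lost without Liver replicate 2 or 3 or MLN replicate 2 or 3 (adjusted p from 0.122 to 0.197), and Nrp1 without replicate 2 or 4 of Liver or MLN or PLN replicate 2 (0.0508 to 0.249). The part of regulatory T cells in the Nt5e and Entpd1 differences was not tested.

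Dendritic cell and B cell transcripts were present on all arrays. The 9 measured dendritic cell markers summed to 3990.1 to 4911.3 in liver, 4413.6 to 5805.3 in MLN, 4810.0 to 5846.9 in PLN and 4171.0 to 6025.2 in spleen cultures, ranges that overlap. The brightest were Cd74 and Batf3, a transcription factor also made by activated T cells, with Batf3 means of 9.98 in liver, 10.67 in MLN, 10.90 in PLN and 10.49 in spleen. Cd74 had means of 10.74, 10.52, 10.73 and 10.74 in the same order. Of the 7 tested genes of the list Batf3 alone passed with the block, at 0.69 (SE 0.18) in MLN against liver (limma adjusted p = 0.0498), and without the block none did. That call held in 4 of 11 fits that left out 1 array, those without Liver replicate 3, PLN replicate 3 or either spleen array. The B cell list summed to 8159.5 to 12128.4 over all arrays, nearly all of it from Ighm, and the other 4 B cell genes summed to 579.8 to 669.6 in MLN and 409.4 to 872.1 in liver. The part of these cells in the levels of the 5 genes was not tested.

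Klrd1 of the NK cell list, also made by killer T cells, had means of 11.68 in liver and 10.89 in MLN, and passed with the block in MLN against liver (limma adjusted p = 0.0139), but not without MLN replicate 2 (0.110). The 7 endothelial and stromal markers summed to 696.5 to 798.5 in liver, 536.9 to 744.1 in MLN, 589.3 to 881.3 in PLN and 774.5 to 821.2 in spleen. Pdpn, made by stromal cells and some macrophages, had means of 7.73, 6.44, 7.08 and 7.69 in that order. It fell by 1.29 in MLN against liver (SE 0.20; limma adjusted p = 0.0404 without the block and 0.00467 with it), a call lost in the fit without the block whichever array was left out (0.0654 to 0.207). The 5 granulocyte markers summed to 241.2 to 417.0 in liver, 148.3 to 305.0 in MLN, 245.4 to 330.5 in PLN and 394.8 to 442.4 in spleen. The 3 hepatocyte markers summed to at most 131.0 on any array and none passed the filter. The part of these cells in the levels of the 5 genes was likewise not tested.

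After the mean effect of the replicate number was removed, all pairs of the 5 genes correlated above 0 across the 11 arrays. These correlations, which describe arrays that share organs and were not tested, ran from 0.67 for P2rx7 with Nt5e to 0.94 for P2rx4 with Entpd1. The choice of genes by known organ differences favours such positive values. Without that removal the same pairs stood at 0.68 and 0.52, and Enpp4 with Entpd1 at 0.31 against 0.89. Among all tested genes, those closest to P2rx4 by this measure were Me1 (r = 0.97), Ehd1 (0.97) and Pim1 (0.97). P2rx7 was closest to Gimap7 (0.94), Gnpat (0.92) and Nsmce1 (0.92), and Enpp4 to Inpp5b (0.97), Epcam (0.96) and Ehd1 (0.94). Nt5e was closest to Pygm (0.97), Ciao2b (0.96) and Jun (0.95), and Entpd1 to Xpnpep1 (0.99), Pim1 (0.97) and Ell (0.97). Epcam, an adhesion molecule of epithelia and some dendritic cells, had means of 6.38 in liver, 7.60 in MLN, 6.90 in PLN and 6.81 in spleen cultures. Pygm, the muscle form of glycogen phosphorylase, had 5.93, 7.55, 7.26 and 7.02 in the same order.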

How the data were processed

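Single-colour oligonucleotide arrays of 11 T cell cultures were compared. The authors deposited 1 linear intensity per probe set and array, scaled so that the mean after trimming 2% at each end was about 500.2 on every array, which was read from the values. The software behind these values is not given in the sources used here. Intensities were transformed as log2(intensity + 16) and quantile normalized. The brightest probe set stood for a gene, and genes in the upper 60% by mean level were tested in R 4.3.3 with limma 3.58.1 (lmFit, eBayes with trend, Benjamini-Hochberg at 0.05). Organ contrasts used 4 organ means with 7 residual degrees of freedom. The number contrasts and the blocked fit held organ and replicate number, with 5.

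The genes, lists, tests and the rule for naming genes were chosen with earlier results of these data known. The rule names the set itself, pathway genes that passed in either fit or had the smallest p of their role, the 3 genes closest to each gene of the set, and the 2 brightest tested genes of each marker list. P2rx1, P2rx3, P2rx5, P2rx6, Crem, Marco, and the markers Cd14, Lyz2, Nrp1, Cd2 and Cd5, which passed with the block, were named after their values were seen. Foxp3 and Ikzf2 were named outside the rule because they missed the filter. Arrays of 1 number pair: after subtraction of organ means, 15 same-number pairs correlated at 0.41 to 0.73 and 30 other pairs at -0.71 to 0.08. Gene symbols were updated by gene ID to RefSeq's GRCm38.p6 annotation. The blocked organ fit and the number contrasts were checked on simulated data with independent noise between arrays. These data held no replicate number effect beyond the differences planted for the number contrast. The organ fit without the block was not checked in this way. The number of arrays limits the precision, and the arrays' median intensities ran from 144.3 to 170.4. Scaling, pseudocount, filter, probe set, block and single arrays were varied.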

Additional observations from a re-analysis of the deposited data

How the results depend on the processing

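The MLN and liver differences of the 5 receptor and ecto-enzyme genes kept their sign under every scaling, pseudocount, block and left-out array tried, and moved by less than the spread between arrays, except with the other P2rx4 probe set (1.09 in MLN and -0.79 in liver). With single arrays left out, the MLN difference ran from 0.69 to 0.80 for P2rx4, 0.88 to 1.14 for P2rx7, 0.76 to 0.98 for Enpp4, 0.97 to 1.44 for Nt5e and 0.16 to 0.39 for Entpd1. The liver difference ran from -0.65 to -0.55, -0.53 to -0.16, -0.61 to -0.34, -1.27 to -0.87 and -0.60 to -0.22 in the same order. In a fit with the replicate block the MLN differences were 0.73, 0.99, 0.88, 1.12 and 0.33.

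Of the 5 genes, 2 passed between numbers 4 and 3. That count was 1 with the other probe sets, 1 in the upper 40% by level, where Entpd1 alone was tested, and 1 to 3 with single arrays left out. Between numbers 4 and 2 it was 0 with the other probe sets. Entpd1 between numbers 3 and 2 stood at -0.0357, and P2rx4 between 4 and 2 at 0.0223, with the other probe set, against 0.10 and -0.14, and the cause was not tested. With single arrays left out, differences near 0 changed sign. Between numbers 4 and 3, P2rx4 ran from -0.0379 to 0.0946 and P2rx7 from -0.10 to 0.21. P2rx7 ran from -0.47 to 0.00805 between 3 and 2 and from -0.43 to 0.0503 between 4 and 2. Between 4 and 2, Enpp4 ran from -0.11 to 0.0764 and Nt5e from -0.52 to 0.22.

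The count of pathway genes passing, 0 in each organ contrast, was 1 in liver, 1 in MLN and 4 between MLN and liver with the replicate block, and 0 to 1 in MLN and between MLN and liver with single arrays left out. Over all genes the block moved the count from 0 to 159 in liver, 7 to 99 in MLN and 12 to 307 between MLN and liver. Over the marker lists it moved the count from 0 to 4 in liver, 0 to 4 in MLN and 1 to 9 between MLN and liver, a fit added after the pathway calls were seen. Leaving out single arrays in the blocked fit was added after its calls were seen, and gave 0 to 3 pathway genes in liver, 0 to 1 in MLN and 1 to 4 between MLN and liver.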
